A study of Rattus norvegicus with 9 samples.

Results

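The genes described here encode the respiratory chain and the ATP synthase of mitochondria, as far as the nucleus carries them. They were taken as the table's genes whose symbol starts with Nduf, Sdha to Sdhd, Uqcr, Cox4 to Cox8 or Atp5, with at least 10 reads in at least 3 samples. Of 17327 genes in the table, 89 had such a symbol and 86 met the read minimum; Cox6c-ps1, Cox8c and Ndufa10l1 did not. All 86 passed the filter on low counts and were tested with 11873 genes in all. By the role of the protein, 74 are subunits: 33 of complex I, 4 of complex II, 8 of complex III, 14 of complex IV and 15 of the ATP synthase, or complex V. The other 12 are assembly factors or proteins kept in the set by their symbol. Cox6b1, Cox7a1, Ndufa3, Ndufa13, Ndufb1, Ndufc1, Sdhaf1, Sdhaf4, Ndufaf2 and Ndufaf8 are not analysed here. Cyc1 and Cycs carry electrons in complex III and between complexes III and IV, but their symbols lie outside the rule and they are given with the partner genes.

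RNA was sequenced from primary ventricular myocytes of newborn rats. The cells were kept for 48 h with vehicle, with phenylephrine at 50 µM (an agonist of alpha-adrenergic receptors) or with insulin-like growth factor 1 (IGF1) at 10 nM, and each of the 3 groups had 3 samples. The labels give no strain, sex or genotype, do not name the vehicle, and do not tell if samples of a group were separate cultures, so the p-values speak only of the spread among these samples, and that spread may be technical.

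Complex I takes electrons from NADH, complex II takes them from succinate, and both pass them to ubiquinone; complex III hands them to cytochrome c and complex IV to oxygen. Complexes I, III and IV pump protons across the inner membrane, and the ATP synthase uses their return to make ATP. Heart muscle depends on this route for most of its ATP, and its cells are rich in mitochondria. Several subunits of complex IV exist as a heart and muscle isoform and a widely expressed isoform, each from a gene of its own.

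Total counts were between 31274396 and 48505265 per sample, and 1 CPM, the unit of level, stood for 29.1 to 51.6 reads. CPM divides reads by the scaled library size and is not scaled to gene length, so levels are compared between samples for the same gene, not between genes. IGF1 replicate 1 stood apart: it was over 1.5-fold away from the other 2 IGF1 samples for 195 and 228 genes, where other pairs within a group gave 2 to 28 such genes. Markers of cardiomyocytes were abundant in every sample, with a summed level of 60370 to 64728 CPM with vehicle, 90348 to 90622 CPM with phenylephrine, and 93412, 67752 and 69442 CPM in IGF1 replicates 1, 2 and 3. Of 14 tested cardiomyocyte markers, 8 rose and 5 fell with phenylephrine, where 27.9% of all tested genes rose and 28.9% fell. With IGF1 8 rose and 2 fell, where 24.7% and 23.4% of all genes did (8 and 4 without replicate 1, where 27.4% and 26.6% did). The markers' log2 differences with phenylephrine ran from -0.61 to 3.51, so their sum does not measure the number of myocytes. The cells were not pure myocytes. The 10 fibroblast markers summed to 5075 to 6069 CPM with vehicle, 4720 to 4814 CPM with phenylephrine and 5955 to 6881 CPM with IGF1. In such bulk samples fewer cells of a type and less RNA per cell cannot be told apart, and the part of these marker differences in the results was not tested.

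Most of the set was higher with IGF1 than with vehicle. Of the 86 genes, 68 rose and 1 fell against vehicle (edgeR's quasi-likelihood test, adjusted p under 0.05), where 24.7% of all tested genes rose and 23.4% fell, and the median log2 difference was 0.30 against -0.00 over all genes. With phenylephrine 31 rose and 9 fell, where 27.9% of all genes rose and 28.9% fell, and the median was 0.10 against -0.03. Compared directly, phenylephrine samples were higher than IGF1 samples for 2 of the 86 genes and lower for 56, where 27.1% of all genes were called higher and 27.1% lower, and the median was -0.20 against -0.00. Both treatments were compared with the same vehicle samples. Side by side, 29 genes rose with each treatment, and 34 rose with IGF1 and passed in neither direction with phenylephrine. Another 5 fell with phenylephrine and rose with IGF1, 1 fell with each, and 12 passed in neither comparison. No such joint counts were made over all tested genes, so these describe the 86 genes and are not shown to be particular to them.

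Sample by sample, the median of the 86 genes relative to the vehicle mean was -0.05, 0.01 and 0.04 on the log2 scale with vehicle, 0.15, 0.08 and 0.07 with phenylephrine, and 0.42, 0.20 and 0.27 in the IGF1 samples. The lowest IGF1 sample was thus above the highest phenylephrine sample. IGF1 replicate 1 was the highest of the IGF1 samples for 81 of the 86 genes, as it was for 41.3% of all genes tested. Without it, 69 genes rose and 2 fell with IGF1, where 27.4% of all genes rose and 26.6% fell, with a median of 0.24, and phenylephrine was higher than IGF1 for 8 genes and lower for 52, where 30.4% and 30.2% of all genes were called. The phenylephrine counts were then 51 higher and 12 lower, since the spread is estimated over all samples, where 31.2% and 32.2% of all genes were called. The 31 and 9 genes called with all 9 samples were all among them.

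The phenylephrine counts moved with the scaling. With library size alone, the median over all tested genes shifted from -0.03 to -0.22 on the log2 scale and that of the 86 genes from 0.10 to -0.09, so that the set lay 0.13 above all genes under either scaling. Under that scaling 9 of the 86 genes rose and 36 fell, where 14.7% and 48% of all genes did. It lowered the phenylephrine difference of each of the 86 genes against vehicle by 0.19, so that a smaller rise changes sign. The IGF1 counts under it were 63 and 3, where 17.1% and 30.4% of all genes were called, and those of phenylephrine against IGF1 were 2 higher and 72 lower, where 18% and 36.8% were. Of the 31 genes that rose with phenylephrine, 9 did so in each of 17 alternative fits: Ndufa12, Ndufb9, Ndufaf4, Ndufaf5, Ndufaf7, Uqcrq, Uqcr10, Cox6a1 and Atp5j2. Of the 9 genes that fell, the following 6 did: Ndufs7, Atp5sl, Sdha, Sdhd, Cox8b and Cox7a2l. With IGF1, 61 of the 68 genes that rose did so in each of the 17 fits.

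**Figure D1:**
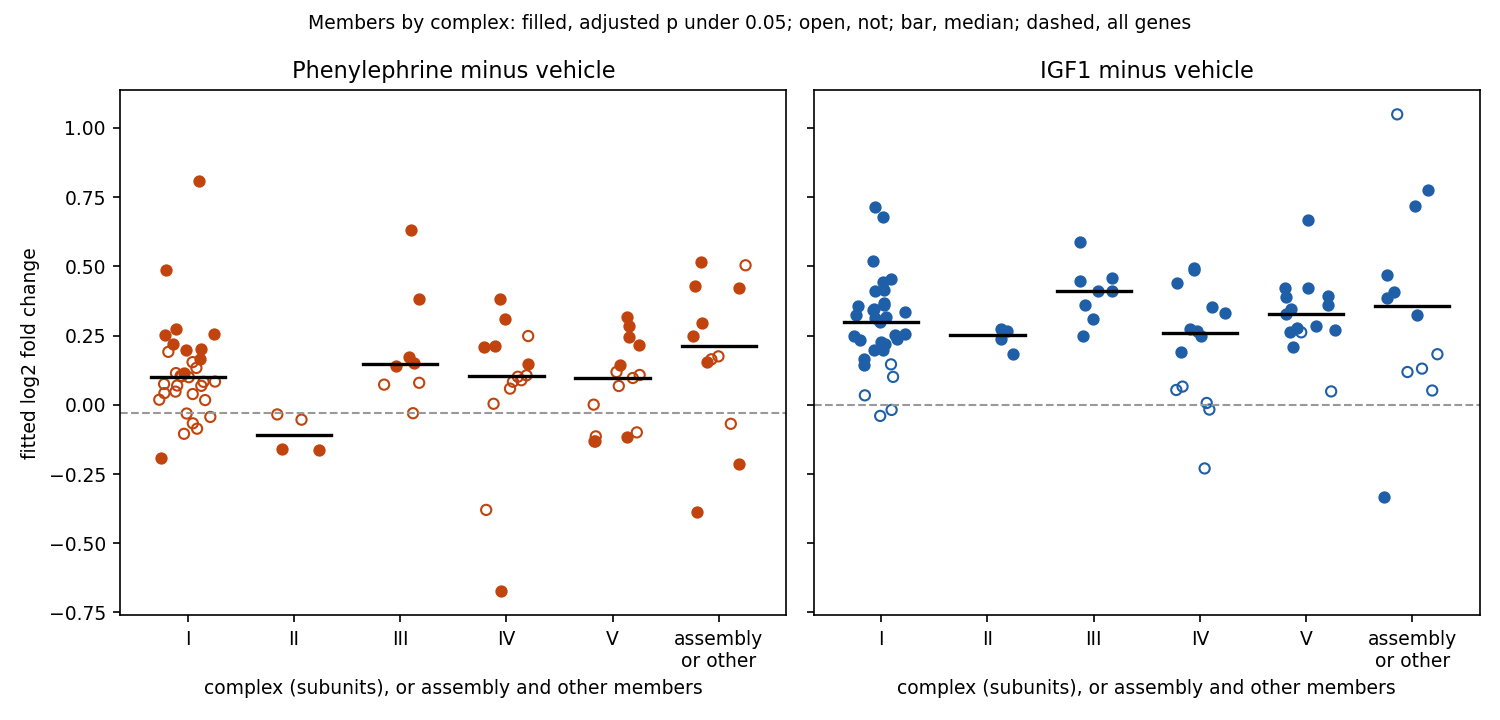
Log2 differences of the 86 genes against vehicle, by complex, with phenylephrine and with IGF1; each point is 1 gene (filled where it passed the test), bars are medians and the dashed line is the median of all genes, scaled by the trimmed mean of M-values. Most points lie above 0 with IGF1 (median 0.30), while those with phenylephrine lie closer to 0 (median 0.10; -0.09 with library size alone).

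Complex I has a peripheral arm, with the N module that oxidises NADH and the Q module that reduces ubiquinone, and a membrane arm that pumps protons. Of its 33 subunits, 28 rose with IGF1 and none fell, with a median log2 difference of 0.30. With phenylephrine 10 rose, or 30.3%, near the 27.9% of all genes, and 1 fell, with a median of 0.10; with library size alone 2 rose and 15 fell. By module, 8 of 9 genes of the N module, 5 of 7 of the Q module and 15 of 17 of the membrane arm or of both arms rose with IGF1, with medians of 0.41, 0.32 and 0.24. For phenylephrine the rises numbered 4, 1 and 5. Counts by complex, module or role, here and below, are to be read against all tested genes. Of these, 27.9% rose and 28.9% fell with phenylephrine (14.7% and 48% with library size alone). With IGF1 24.7% rose and 23.4% fell (17.1% and 30.4%). Wherever none is given as rising or falling with no other scaling named, here and for the lists that follow, the count was 0 with edgeR, also at an unadjusted p under 0.05, and 0 with DESeq2 and limma-voom.

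Ndufs1, the largest subunit of complex I and the holder of iron-sulfur clusters in the N module, had 490, 525 and 534 CPM with vehicle, 630, 633 and 608 CPM with phenylephrine and 889, 819 and 834 CPM with IGF1. The 3 groups did not overlap. The log2 difference was 0.71 ± 0.05 (SE) with IGF1 (edgeR adjusted p = 1.7e-08) and 0.27 ± 0.05 with phenylephrine (edgeR adjusted p = 0.00017); the latter was 0.08 with library size alone (edgeR adjusted p = 0.084).

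Ndufa12, an accessory subunit of the same module, was at 60.7, 63.8 and 64.8 CPM with vehicle, 96.8, 84.0 and 84.5 CPM with phenylephrine and 111, 92.7 and 99.6 CPM with IGF1. Every treated sample was above every vehicle sample, and the treated groups overlapped. The log2 differences were 0.49 with phenylephrine (edgeR adjusted p = 3e-05) and 0.68 with IGF1 (edgeR adjusted p = 1.8e-06). Ndufs6, a zinc-binding subunit, rose with IGF1 by 0.52 (edgeR adjusted p = 2e-05), against 0.08 with phenylephrine (edgeR adjusted p = 0.32), and the treatments differed by -0.43 (edgeR adjusted p = 8.7e-05).

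Ndufb9, a subunit of the membrane arm, had the opposite order of treatments. Its levels were 307, 311 and 316 CPM with vehicle, 556, 542 and 537 CPM with phenylephrine and 440.5, 333 and 337 CPM with IGF1. The phenylephrine samples were above all others, and IGF1 replicate 1 lay well above the remaining IGF1 samples. The gene was 1.75-fold higher with phenylephrine than with vehicle (log2 0.81 ± 0.09, edgeR adjusted p = 3.6e-05) and higher than with IGF1 by 0.56 on the log2 scale (edgeR adjusted p = 0.0005). Its difference with IGF1 was 0.25 (edgeR adjusted p = 0.046) and fell to 0.11 without replicate 1; that call ended when any 1 of the vehicle or phenylephrine samples was left out.

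Ndufa7 was the other gene of the 86 that was higher with phenylephrine than with IGF1. It had 115, 109 and 114 CPM with vehicle, 134, 138 and 130 CPM with phenylephrine and 120, 105 and 108 CPM with IGF1, and the vehicle and IGF1 samples overlapped. The log2 differences were 0.25 with phenylephrine (edgeR adjusted p = 0.00062; 0.06 and no call with library size alone) and -0.02 with IGF1 (edgeR adjusted p = 0.8). Ndufs7, an iron-sulfur subunit next to the ubiquinone site, was the one complex I subunit that fell with phenylephrine, from 139, 143 and 144 CPM to 122, 128 and 123 CPM (log2 -0.19, edgeR adjusted p = 0.01). With IGF1 it had 154, 128 and 134 CPM, which spanned the vehicle values; the difference was -0.04 (edgeR adjusted p = 0.59), and -0.12 without replicate 1 (edgeR adjusted p = 0.0041).

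**Figure D2:**
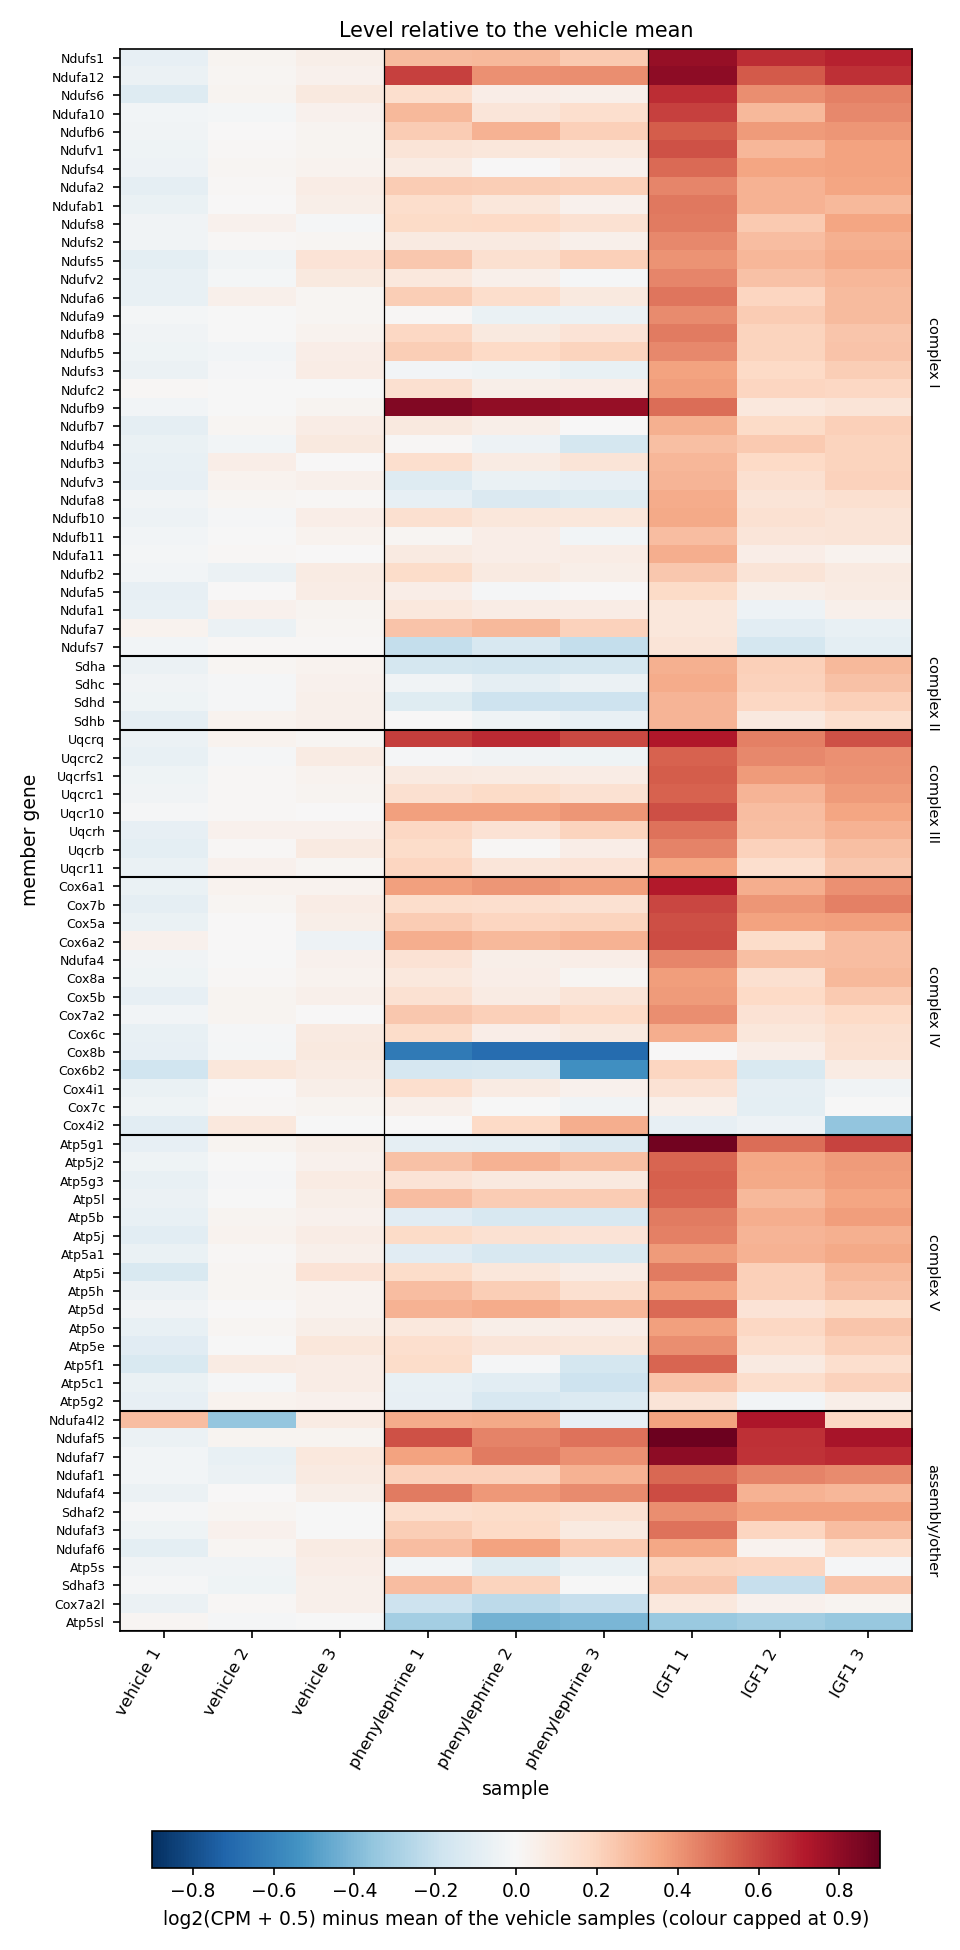
Level of each of the 86 genes in each of the 9 samples, as the difference of log2(CPM + 0.5) from the mean of the vehicle samples, with genes grouped by complex. The IGF1 columns are higher for most genes, replicate 1 most of all. The fitted phenylephrine difference is above 0 for 65 of the 86 genes. All phenylephrine samples lie above all vehicle samples for 47 genes, where 32.6% of all tested genes do. They lie below all vehicle samples for 12, Cox8b and Atp5sl among them, where 34% of all tested genes do. With library size alone the median phenylephrine difference turns to -0.09.

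Complex II, succinate dehydrogenase, also belongs to the citric acid cycle and is the one complex encoded wholly in the nucleus. Its 4 genes all rose with IGF1, and with phenylephrine none rose and 2 fell (4 with library size alone). Sdha, the flavoprotein that oxidises succinate, had 799, 838 and 847 CPM with vehicle, 742, 736 and 741 CPM with phenylephrine and 1032, 958 and 1011 CPM with IGF1. The groups did not overlap, with phenylephrine lowest and IGF1 highest. Its log2 differences were -0.16 with phenylephrine (edgeR adjusted p = 0.0051), 0.27 with IGF1 (edgeR adjusted p = 0.00011) and -0.44 between them (edgeR adjusted p = 8.4e-07).

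Sdhd, a membrane anchor, had 436, 445 and 462 CPM with vehicle, 415, 393 and 394 CPM with phenylephrine and 555, 510 and 521 CPM with IGF1, again without overlap. Its log2 differences were -0.16 (edgeR adjusted p = 0.0066) and 0.24 (edgeR adjusted p = 0.00047). The iron-sulfur subunit Sdhb and the anchor Sdhc did not pass with phenylephrine, at -0.03 and -0.05, and rose with IGF1 by 0.18 and 0.27; Sdhb did not pass with IGF1 without vehicle replicate 1 (log2 0.14, edgeR adjusted p = 0.088) or with library size alone (log2 0.10), and stood at 0.12 without IGF1 replicate 1. Summed over the 4 genes, complex II stood at 1993 ± 60.3 CPM (SD, n = 3) with vehicle, 1835 ± 27.04 CPM with phenylephrine and 2373 ± 107 CPM with IGF1.

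Complex III passes electrons from ubiquinol to cytochrome c. All 8 of its genes rose with IGF1, with a median log2 difference of 0.41, and 5 rose and none fell with phenylephrine, with a median of 0.15 (2 and 2 with library size alone). Uqcrq, a small subunit of the membrane part, had 149, 158 and 156 CPM with vehicle, 238, 246 and 233 CPM with phenylephrine and 255, 212 and 229 CPM with IGF1. All treated samples were above all vehicle samples, and the treated groups overlapped. The differences were 0.63 with phenylephrine (edgeR adjusted p = 3.7e-07) and 0.59 with IGF1 (edgeR adjusted p = 1.1e-06), and 0.04 between the treatments (edgeR adjusted p = 0.55). Without IGF1 replicate 1 Uqcrq was higher with phenylephrine than with IGF1 (log2 0.12, edgeR adjusted p = 0.0053), and those samples did not overlap. Uqcr10, another small subunit, rose by 0.38 and 0.41.

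The core protein Uqcrc2 and the Rieske iron-sulfur protein Uqcrfs1 had another pattern. Uqcrc2 had 717, 748 and 793 CPM with vehicle, 746, 734 and 731 CPM with phenylephrine and 1088, 1015 and 999.5 CPM with IGF1. The phenylephrine samples fell within the vehicle range, and the IGF1 samples were above both (log2 0.46, edgeR adjusted p = 2.2e-06). Uqcrfs1 rose with IGF1 by 0.45 (edgeR adjusted p = 2.1e-06) and differed by 0.07 with phenylephrine (edgeR adjusted p = 0.2). With library size alone Uqcrc2 and Uqcrfs1 passed as lower with phenylephrine (log2 -0.22 and -0.12, edgeR adjusted p = 0.00024 and 0.0066). The phenylephrine calls of Uqcrh, Uqcr11 and Uqcrc1 rested on differences of 0.14 to 0.17, ended without vehicle replicate 1 (edgeR adjusted p of 0.12 to 0.18) and were -0.02, -0.05 and -0.04 with library size alone.

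Summed over subunits, complex I stood at 5918 ± 173 CPM (SD, n = 3) with vehicle, 6537 ± 126 CPM with phenylephrine and 7403 ± 544 CPM with IGF1. Complex III had 2664 ± 92.2, 2908 ± 24.7 and 3560 ± 240 CPM, complex IV 5125 ± 129, 5600 ± 116 and 6095 ± 548 CPM, and complex V 13937 ± 563, 13436 ± 224 and 17858 ± 968 CPM. A few abundant genes weigh most in such sums. As a share of all counts, which is scaling by library size alone, the 86 genes held 3.22% ± 0.087 with vehicle, 2.88% ± 0.044 with phenylephrine and 3.81% ± 0.071 with IGF1. On that scale phenylephrine was below vehicle for complexes I (0.609% against 0.631%), III (0.271% against 0.284%) and IV (0.522% against 0.547%) as well, so that their direction depends on the scaling.

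**Figure D3:**
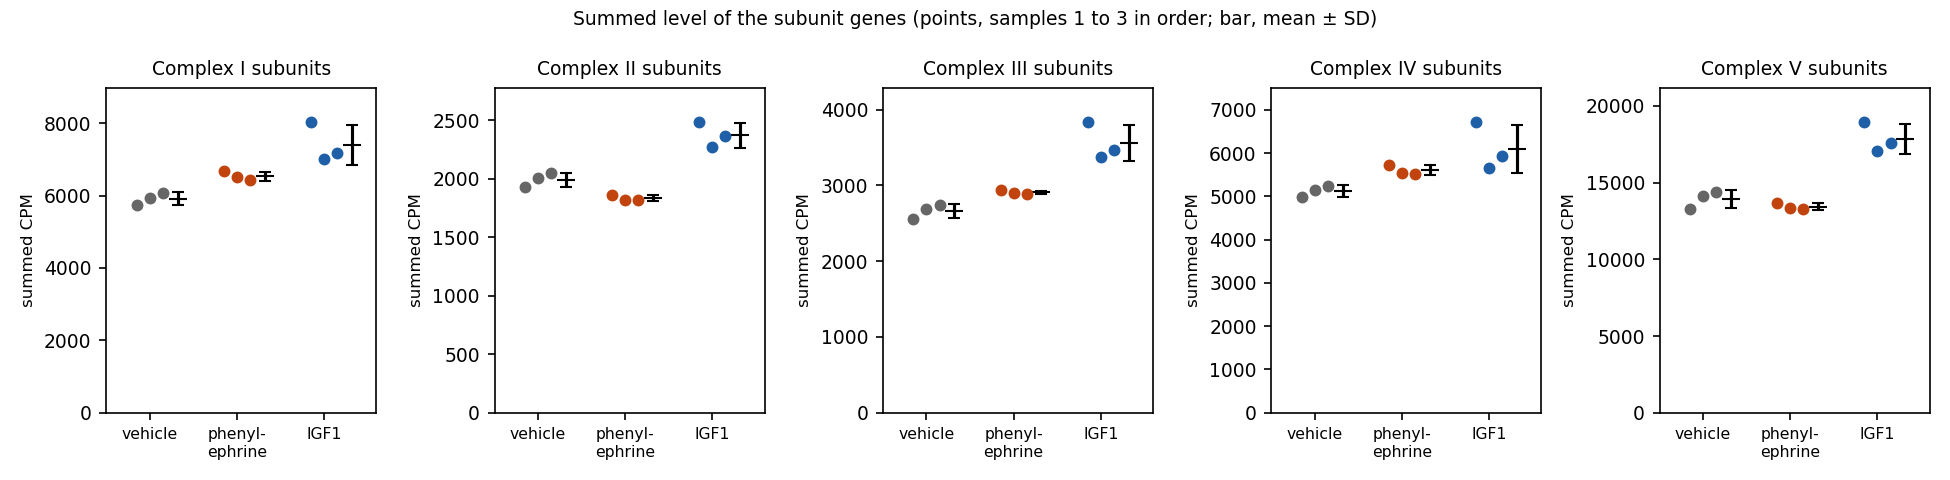
Summed CPM of the nuclear subunits of each complex in each sample, with the group mean and SD (n = 3). The means of all 5 complexes are highest with IGF1; with phenylephrine those of complexes I, III and IV lie above vehicle and those of II and V below it, while with library size alone all 5 lie below.

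Complex IV, cytochrome c oxidase, reduces oxygen to water. Of its 14 nuclear genes 9 rose with IGF1 and none fell, where 24.7% of all tested genes rose and 23.4% fell. With phenylephrine 5 rose, or 35.7%, where 27.9% of all genes did, and 1 fell, where 28.9% did. With library size alone 1 rose and 5 fell, where 14.7% and 48% of all genes did. Cox6a1, the widely expressed isoform of subunit VIa, had 286, 304 and 305 CPM with vehicle, 385, 394 and 388 CPM with phenylephrine and 490, 375 and 397 CPM with IGF1. All treated samples exceeded all vehicle samples. The log2 differences were 0.38 (edgeR adjusted p = 0.0018) and 0.49 (edgeR adjusted p = 0.00041). Its heart and muscle counterpart Cox6a2 had 820, 801 and 773 CPM with vehicle, 1002, 975 and 989 CPM with phenylephrine and 1198, 893 and 967 CPM with IGF1. It rose by 0.31 with phenylephrine (edgeR adjusted p = 0.0089), which did not pass with library size alone (log2 0.12), and by 0.35 with IGF1 (edgeR adjusted p = 0.0052; 0.22 without IGF1 replicate 1). The difference between treatments was -0.04 (edgeR adjusted p = 0.7), and 0.09 without IGF1 replicate 1 (edgeR adjusted p = 0.02).

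The isoforms of subunit VIII diverged. Cox8b, the heart and muscle isoform, had 223, 232 and 249 CPM with vehicle, 150.5, 146 and 145 CPM with phenylephrine and 235, 244 and 257 CPM with IGF1. The phenylephrine samples were below all others, while vehicle and IGF1 samples overlapped. The gene fell with phenylephrine by 0.67 ± 0.05 (SE) on the log2 scale (edgeR adjusted p = 3.2e-08) and was lower than with IGF1 (log2 -0.74, edgeR adjusted p = 8.5e-09). Its difference with IGF1 was 0.07 (edgeR adjusted p = 0.28), and 0.10 without IGF1 replicate 1 (edgeR adjusted p = 0.027).

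Cox8a, the widely expressed isoform, had 435, 450 and 457 CPM with vehicle, 478, 466 and 453 CPM with phenylephrine and 579, 494 and 549 CPM with IGF1. The phenylephrine and vehicle samples overlapped (log2 0.06, edgeR adjusted p = 0.37; -0.14 with library size alone), and it rose with IGF1 by 0.27 (edgeR adjusted p = 6e-04). Of the reads on both genes, Cox8b held 34.4% ± 0.80 (SD, n = 3) with vehicle, 23.98% ± 0.208 with phenylephrine and 31.3% ± 2.18 with IGF1. For subunit VIa the share of Cox6a2 stayed between 70.4% and 74.1% over all 9 samples. Such shares compare samples, since the genes differ in length.

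Cox5a and Cox7b rose with IGF1 by 0.44 and 0.49. With phenylephrine Cox5a rose by 0.21 (edgeR adjusted p = 0.0051; 0.01 with library size alone), and Cox7b by 0.15, a call that ended in 5 of the 9 fits that leave out a sample and reversed to -0.05 with library size alone. Cox7c and the main isoform of subunit IV, Cox4i1, passed in no comparison, with log2 differences of -0.02 to 0.09. With library size alone Cox7c was lower than with vehicle for phenylephrine (log2 -0.19, edgeR adjusted p = 0.00061) and for IGF1 (log2 -0.10, edgeR adjusted p = 0.036). Without IGF1 replicate 1, Cox4i1 was higher with phenylephrine than with IGF1 (log2 0.15, edgeR adjusted p = 0.00027) and than with vehicle (log2 0.09, edgeR adjusted p = 0.011), while with library size alone it was lower with phenylephrine than with vehicle (log2 -0.11, edgeR adjusted p = 0.041). The hypoxia-associated isoforms Cox4i2 and Ndufa4l2 and the testis isoform Cox6b2 had low levels, with at most 1.74 CPM in any sample. Of these, Ndufa4l2 was near the limit of detection, at 0.05 to 0.65 CPM. Ndufa4, once counted to complex I and now to complex IV, rose with IGF1 by 0.33 (edgeR adjusted p = 6.2e-05).

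**Figure D4:**
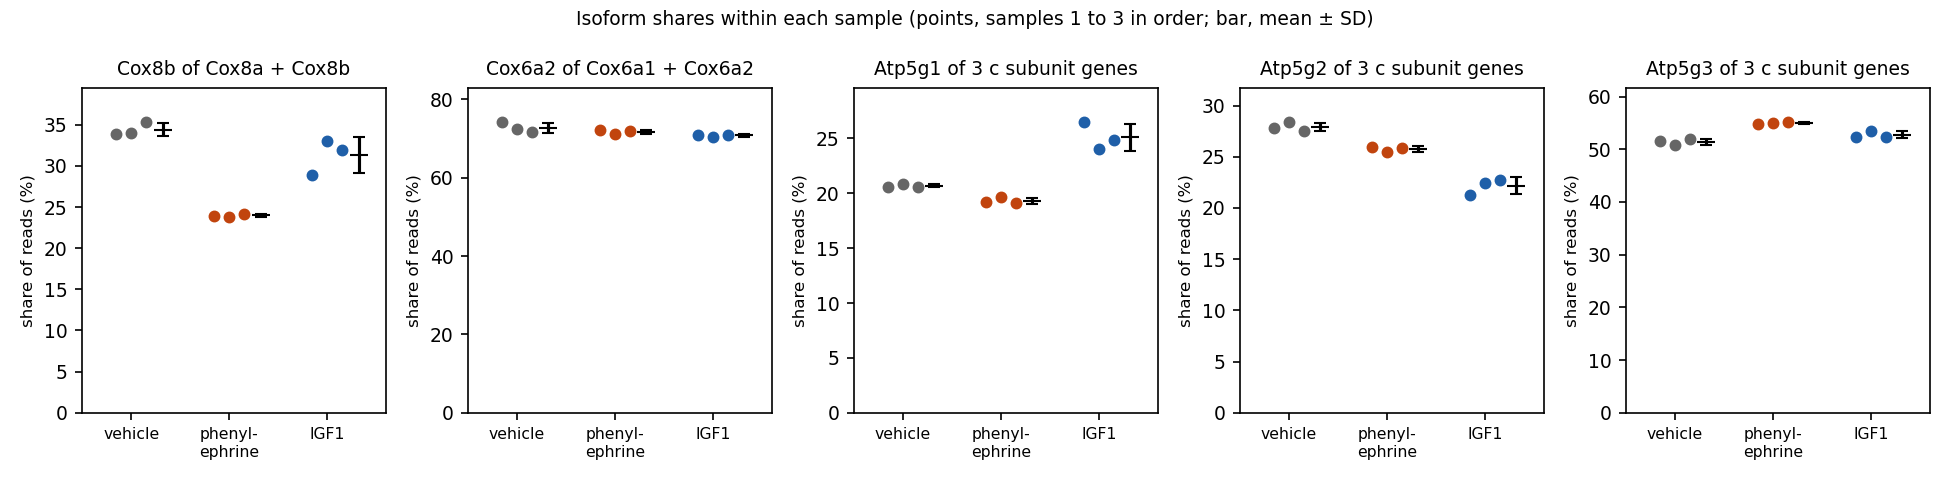
Share of reads held by an isoform among the genes of the same subunit, in percent for each sample, with the group mean and SD (n = 3). Cox8b takes a lower share with phenylephrine than in any vehicle sample, and Atp5g1 a higher share in each IGF1 sample than in any other.

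The ATP synthase, complex V, has the catalytic F1 head, a ring of c subunits in the membrane, a peripheral stalk and small membrane subunits. Of its 15 genes 13 rose with IGF1 and none fell, where 24.7% of all tested genes rose and 23.4% fell. With phenylephrine 5 rose, or 33.3%, where 27.9% of all genes did, and 3 fell, or 20%, where 28.9% did. These 3 belong to the F1 head. With library size alone 1 rose and 7 fell, where 14.7% and 48% of all genes did. Atp5b, the catalytic beta subunit, had 5776, 6172 and 6222 CPM with vehicle, 5629, 5473 and 5475 CPM with phenylephrine and 8366, 7576 and 7855 CPM with IGF1. The groups did not overlap. The log2 differences were -0.13 with phenylephrine (edgeR adjusted p = 0.035) and 0.39 with IGF1 (edgeR adjusted p = 1.5e-05). Atp5a1, the alpha subunit, had 2925, 3073 and 3139 CPM with vehicle, 2831, 2761 and 2762 CPM with phenylephrine and 3977, 3776 and 3850 CPM with IGF1, with differences of -0.13 (edgeR adjusted p = 0.023) and 0.34 (edgeR adjusted p = 1.8e-05).

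The third was Atp5c1, the gamma subunit of the rotating shaft, at -0.12 with phenylephrine (edgeR adjusted p = 0.0496) and 0.21 with IGF1 (edgeR adjusted p = 0.0021). These phenylephrine calls were fragile. That of Atp5a1 ended when vehicle or phenylephrine replicate 2 or 3 was left out (edgeR adjusted p of 0.059 to 0.082), and that of Atp5b when vehicle replicate 2 or 3 or any 1 of the phenylephrine samples was (0.06 to 0.11). That of Atp5c1 ended in the same 5 fits as Atp5b (0.052 to 0.22) and with DESeq2 (adjusted p = 0.062). The differences between treatments were larger: phenylephrine minus IGF1 was -0.52 on the log2 scale for Atp5b (edgeR adjusted p = 5.6e-07), -0.47 for Atp5a1 and -0.32 for Atp5c1. Atp5d, the delta subunit of the same head, rose with phenylephrine by 0.32 (0.12 and no call with library size alone) and with IGF1 by 0.28, a call that ended without vehicle replicate 1 (edgeR adjusted p = 0.066). Without IGF1 replicate 1 its IGF1 difference was 0.15, and it was higher with phenylephrine than with IGF1 (log2 0.17, edgeR adjusted p = 1.2e-05).

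The c ring is built from 1 mature protein that 3 genes encode, Atp5g1, Atp5g2 and Atp5g3. Atp5g1 had 314, 336 and 343 CPM with vehicle, 313, 311 and 302 CPM with phenylephrine and 603, 468 and 505 CPM with IGF1. The IGF1 samples were above all others, replicate 1 most of all. It rose with IGF1 by 0.67 on the log2 scale (edgeR adjusted p = 1.9e-05) and differed by -0.10 with phenylephrine (edgeR adjusted p = 0.29). Without IGF1 replicate 1 the latter passed the threshold (edgeR adjusted p = 0.0074), as it did with library size alone (log2 -0.29, edgeR adjusted p = 0.00039).

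Atp5g3 rose with IGF1 by 0.42 (edgeR adjusted p = 1.5e-05), and its difference with phenylephrine was 0.10 (edgeR adjusted p = 0.14; -0.10 with library size alone). Atp5g2 had 424, 457 and 459 CPM with vehicle, 424, 405 and 409 CPM with phenylephrine and 484, 438 and 463 CPM with IGF1. Its differences were -0.11 with phenylephrine (edgeR adjusted p = 0.053, and 0.0015 without IGF1 replicate 1) and 0.05 with IGF1 (edgeR adjusted p = 0.42). With library size alone its phenylephrine difference was -0.31 (edgeR adjusted p = 2.1e-05). Of the reads on the 3 genes, Atp5g1 held 20.7% ± 0.16 (SD, n = 3) with vehicle, 19.3% ± 0.28 with phenylephrine and 25.1% ± 1.246 with IGF1, and Atp5g2 held 27.9% ± 0.41, 25.8% ± 0.26 and 22.2% ± 0.82. These genes, and many others of the set, have close copies or pseudogenes, so reads may have been lost or assigned to a copy and their levels are uncertain. In the stalk and the membrane part, Atp5j2 rose by 0.28 and 0.42 and Atp5l by 0.25 (0.05 with library size alone) and 0.39 with phenylephrine and IGF1.

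Among the 12 assembly factors and other genes, 6 rose and 2 fell with phenylephrine (3 and 3 with library size alone), and 6 rose and 1 fell with IGF1. Ndufaf5 and Ndufaf7, methyltransferases that modify complex I subunits during assembly, had the largest rises of this group with IGF1. Ndufaf5 had 20.3, 21.4 and 21.5 CPM with vehicle, 31.6, 28.9 and 29.8 CPM with phenylephrine and 39.2, 33.5 and 35.6 CPM with IGF1. The groups did not overlap. The log2 differences were 0.51 (edgeR adjusted p = 1.3e-05) and 0.77 (edgeR adjusted p = 2.5e-07), and those of Ndufaf7 were 0.42 and 0.72. Ndufaf4 rose by 0.43 and 0.41. Sdhaf2, which helps attach the flavin to Sdha, rose by 0.39 with IGF1 and by 0.15 with phenylephrine, the latter turning to -0.04 with library size alone.

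Atp5sl was the gene of the 86 that fell with each treatment. The protein is known as a complex I assembly factor despite its symbol. It had 53.2, 52.2 and 52.4 CPM with vehicle, 42.45, 38.98 and 39.4 CPM with phenylephrine and 41.7, 42.2 and 41.5 CPM with IGF1. Vehicle was above both treated groups, which overlapped (log2 -0.39, edgeR adjusted p = 5.7e-06, and -0.33, edgeR adjusted p = 2.9e-05). Cox7a2l, which takes part in the joining of complexes III and IV into supercomplexes, fell with phenylephrine from 182, 190 and 196 CPM to 166, 160.5 and 163.5 CPM (log2 -0.21, edgeR adjusted p = 0.00039). With IGF1 it had 202, 194 and 193 CPM, overlapping vehicle.

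Promoters are shown for 7 genes with different patterns, picked after their values were seen: Ndufs1, which rose with each treatment and more with IGF1; Uqcrq, which rose with each treatment; the isoforms Cox8a and Cox8b; and the 3 genes of the c ring. The sequences are the 250 bases before the RefSeq start in the GRCr8 build, all read on the minus strand, 5′ to 3′, while the counts were made on rn5. Their places are chr9:72073606-72073855 (Ndufs1), chr10:38089979-38090228 (Uqcrq), chr1:213833624-213833873 (Cox8a), chr1:205408274-205408523 (Cox8b), chr10:81523346-81523595 (Atp5g1), chr7:135678219-135678468 (Atp5g2) and chr3:79220665-79220914 (Atp5g3). Capitals mark matches to 1 of 5 motifs searched on both strands.
Ndufs1: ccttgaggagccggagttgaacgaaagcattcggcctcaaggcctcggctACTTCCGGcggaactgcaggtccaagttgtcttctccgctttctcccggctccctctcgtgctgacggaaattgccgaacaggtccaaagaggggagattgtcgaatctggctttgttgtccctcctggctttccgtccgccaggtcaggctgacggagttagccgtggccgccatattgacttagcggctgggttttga
Uqcrq: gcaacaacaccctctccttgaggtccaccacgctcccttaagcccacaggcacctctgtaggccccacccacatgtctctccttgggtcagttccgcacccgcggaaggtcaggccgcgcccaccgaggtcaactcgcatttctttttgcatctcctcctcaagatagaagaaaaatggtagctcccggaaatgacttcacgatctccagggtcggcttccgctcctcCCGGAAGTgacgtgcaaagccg
Cox8a: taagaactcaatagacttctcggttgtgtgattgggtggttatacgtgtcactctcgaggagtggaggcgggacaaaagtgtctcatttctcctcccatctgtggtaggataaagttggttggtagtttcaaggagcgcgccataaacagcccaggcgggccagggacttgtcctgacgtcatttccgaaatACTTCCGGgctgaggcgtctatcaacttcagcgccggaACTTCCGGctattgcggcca
Cox8b: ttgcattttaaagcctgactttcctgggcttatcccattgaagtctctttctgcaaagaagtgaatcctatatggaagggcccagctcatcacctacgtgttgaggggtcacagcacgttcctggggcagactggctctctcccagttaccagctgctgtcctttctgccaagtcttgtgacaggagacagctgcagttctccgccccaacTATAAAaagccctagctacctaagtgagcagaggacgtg
Atp5g1: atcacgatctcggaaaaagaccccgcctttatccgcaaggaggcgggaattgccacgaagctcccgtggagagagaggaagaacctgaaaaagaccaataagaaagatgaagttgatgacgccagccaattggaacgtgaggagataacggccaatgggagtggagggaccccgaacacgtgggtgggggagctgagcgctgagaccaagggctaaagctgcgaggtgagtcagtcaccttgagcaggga
Atp5g2: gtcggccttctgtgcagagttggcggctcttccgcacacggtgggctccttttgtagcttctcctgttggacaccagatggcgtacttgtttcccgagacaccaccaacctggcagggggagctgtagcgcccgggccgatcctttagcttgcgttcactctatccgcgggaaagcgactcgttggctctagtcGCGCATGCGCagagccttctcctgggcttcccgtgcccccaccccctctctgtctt
Atp5g3: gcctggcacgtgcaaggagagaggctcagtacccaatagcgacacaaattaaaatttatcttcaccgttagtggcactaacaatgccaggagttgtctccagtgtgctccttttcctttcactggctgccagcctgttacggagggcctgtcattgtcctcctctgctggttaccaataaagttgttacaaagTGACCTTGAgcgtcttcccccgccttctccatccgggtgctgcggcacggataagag
The capitals are an ETS motif in Ndufs1, Uqcrq and, in 2 places, Cox8a; a TATA box in Cox8b; an NRF1 motif in Atp5g2; and an ERR motif in Atp5g3. Atp5g1 has no match, which says only that these letters are not in its window.

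The motifs were counted in windows of 300 bases, from 250 before to 50 after the start. Of the 86 genes, 69 matched RefSeq by symbol and 17 by an older name, and 75 had a promoter. The NRF1 motif, whose 10 letters are the capitals in Atp5g2 above, was in 6 of the 75, or 8.0%, against 1.14% of 19005 promoters of protein-coding genes and 1.84% of the 9487 promoters of tested genes. The YY1 motif (AAGATGGCG) was in 10, or 13.3%, against 2.29% and 3.59%. The ETS motif (CCGGAAGT) was in 7, or 9.33%, against 4.99% and 8.1%. The ERR motif (TCAAGGTCA) was in 2, Atp5g3 and Sdhd, or 2.67%, against 0.353% and 0.221%. The TATA box (TATAAA) was in 6, or 8.0%, against 13.1% and 6.91%. The NRF1 matches were in Atp5g2, Atp5i, Atp5o, Ndufa11, Ndufaf4 and Ndufaf5. A match is a description of letters, not a shown binding site. The 6 genes with the NRF1 motif did not share 1 pattern. Ndufaf4 and Ndufaf5 rose with each treatment, Atp5o and Atp5i rose only with IGF1, and Atp5g2 and Ndufa11 passed against vehicle with neither. Without IGF1 replicate 1, Ndufa11 and Atp5o passed as higher with phenylephrine (edgeR adjusted p = 0.044 and 0.041) and Atp5g2 as lower (0.0015). With library size alone Ndufa11, Atp5o and Atp5g2 all passed as lower with phenylephrine (edgeR adjusted p of 2.1e-05 to 0.029).

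The partner genes of the chain were followed in lists chosen by function. Their counts are to be read against all tested genes, of which 27.9% rose and 28.9% fell with phenylephrine (14.7% and 48% with library size alone), and 24.7% rose and 23.4% fell with IGF1 (17.1% and 30.4%). Cycs, cytochrome c, had 278, 286 and 303 CPM with vehicle, 411, 404 and 402 CPM with phenylephrine and 491, 430 and 429 CPM with IGF1, without overlap between the groups. Its log2 differences were 0.49 (edgeR adjusted p = 2.1e-06) and 0.64 (edgeR adjusted p = 2.1e-07). Cyc1, the cytochrome subunit of complex III, rose with IGF1 by 0.48 (edgeR adjusted p = 7e-06) and differed by 0.12 with phenylephrine (edgeR adjusted p = 0.089; 0.00026 without IGF1 replicate 1), which was -0.08 with library size alone. Bcs1l, which inserts the Rieske protein into complex III, rose by 0.45 and 0.85. Of 6 tested genes of complex III outside the set, 3 rose and 1 fell with phenylephrine (2 and 2 with library size alone), and 5 rose and none fell with IGF1. Of 19 tested genes of complex IV assembly and heme A, 8 rose and 1 fell with phenylephrine, and 12 rose and 1 fell with IGF1. With library size alone these counts were 2 and 7, and 6 and 2, so the balance with phenylephrine turned with the scaling.

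Electrons also reach ubiquinone by other routes. Of 17 tested genes of ubiquinone synthesis and electron carriers, 7 rose and 5 fell with phenylephrine (5 and 7 with library size alone), and 13 rose and 1 fell with IGF1 (10 and 1). Etfdh, which passes electrons from fatty acid oxidation to ubiquinone, had 285, 292 and 298 CPM with vehicle, 221, 213 and 210 CPM with phenylephrine and 311, 318 and 321 CPM with IGF1. The groups did not overlap (log2 -0.44, edgeR adjusted p = 2.3e-07, and 0.12, edgeR adjusted p = 0.019; the latter was 0.04 and no call with library size alone). Its electron donor Etfa had differences of -0.24 and 0.29. Adck3, an atypical kinase needed for ubiquinone synthesis, fell with each treatment, by 0.83 and 0.54 on the log2 scale.

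Of 8 tested genes for the exchange of adenine nucleotides and phosphate, 2 rose and 3 fell with phenylephrine (2 and 5 with library size alone), and 7 rose and none fell with IGF1. Slc25a4, the ADP/ATP carrier of heart and muscle, rose with IGF1 by 0.35 (edgeR adjusted p = 3.2e-05) and differed by -0.05 with phenylephrine (edgeR adjusted p = 0.39; -0.24 and a call with library size alone). Ckmt2, the mitochondrial creatine kinase of muscle, had 5.64, 5.99 and 6.36 CPM with vehicle, 4.36, 4.89 and 4.14 CPM with phenylephrine and 47.8, 45.8 and 46.3 CPM with IGF1 (log2 2.96, edgeR adjusted p = 2.1e-12). All 3 IGF1 samples were close together. Of 7 tested genes of the ATP synthase outside the set, 4 rose and 2 fell with phenylephrine (none rose and 3 fell with library size alone), and 5 rose and 2 fell with IGF1. Atpif1, the inhibitor of the ATP synthase, rose with phenylephrine by 0.20, which was 0.00 with library size alone, fell by 0.12 with IGF1, and differed between the treatments by 0.32 (edgeR adjusted p = 1.2e-05).

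Of 12 tested regulators of these genes, 3 rose and 6 fell with phenylephrine (1 and 7 with library size alone), and 1 rose and 3 fell with IGF1. Ppargc1a, a coactivator of mitochondrial genes, had 80.3, 89.7 and 82.0 CPM with vehicle, 56.4, 54.8 and 58.6 CPM with phenylephrine and 70.9, 85.6 and 82.9 CPM with IGF1. Phenylephrine samples were below all others (log2 -0.57, edgeR adjusted p = 4.5e-06), while IGF1 and vehicle overlapped (log2 -0.07, edgeR adjusted p = 0.39). Perm1, a muscle regulator linked to the same coactivators, had 65.7, 75.1 and 73.6 CPM with vehicle, 54.6, 52.4 and 50.6 CPM with phenylephrine and 103, 104 and 102 CPM with IGF1. The groups did not overlap, and the treatments differed by -0.98 on the log2 scale (edgeR adjusted p = 1.1e-09). Pprc1, a coactivator related to Ppargc1a, rose with phenylephrine by 0.50 and differed by -0.04 with IGF1. The nuclear receptor Esrrg fell by 0.23 with IGF1 and rose by 0.20 with phenylephrine, the latter being 0.01 and no call with library size alone. The related Esrra and the mitochondrial transcription factor Tfam rose with phenylephrine by 0.11 (edgeR adjusted p = 0.047) and 0.17 (edgeR adjusted p = 0.012), and with library size alone these differences were -0.08 and -0.03. Without vehicle replicate 1 neither passed. The coactivator Ppargc1b and the ETS factor subunit Gabpa passed against vehicle with neither treatment, at 0.16 and -0.11 with phenylephrine and -0.08 and 0.02 with IGF1; Gabpa passed as lower with phenylephrine with library size alone (log2 -0.31) and without IGF1 replicate 1 (edgeR adjusted p = 0.01). Nrf1, a transcription factor for respiratory genes, fell by 0.28 and 0.22, the latter not passing without vehicle replicate 1 or 3 or IGF1 replicate 3.

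**Figure D5:**
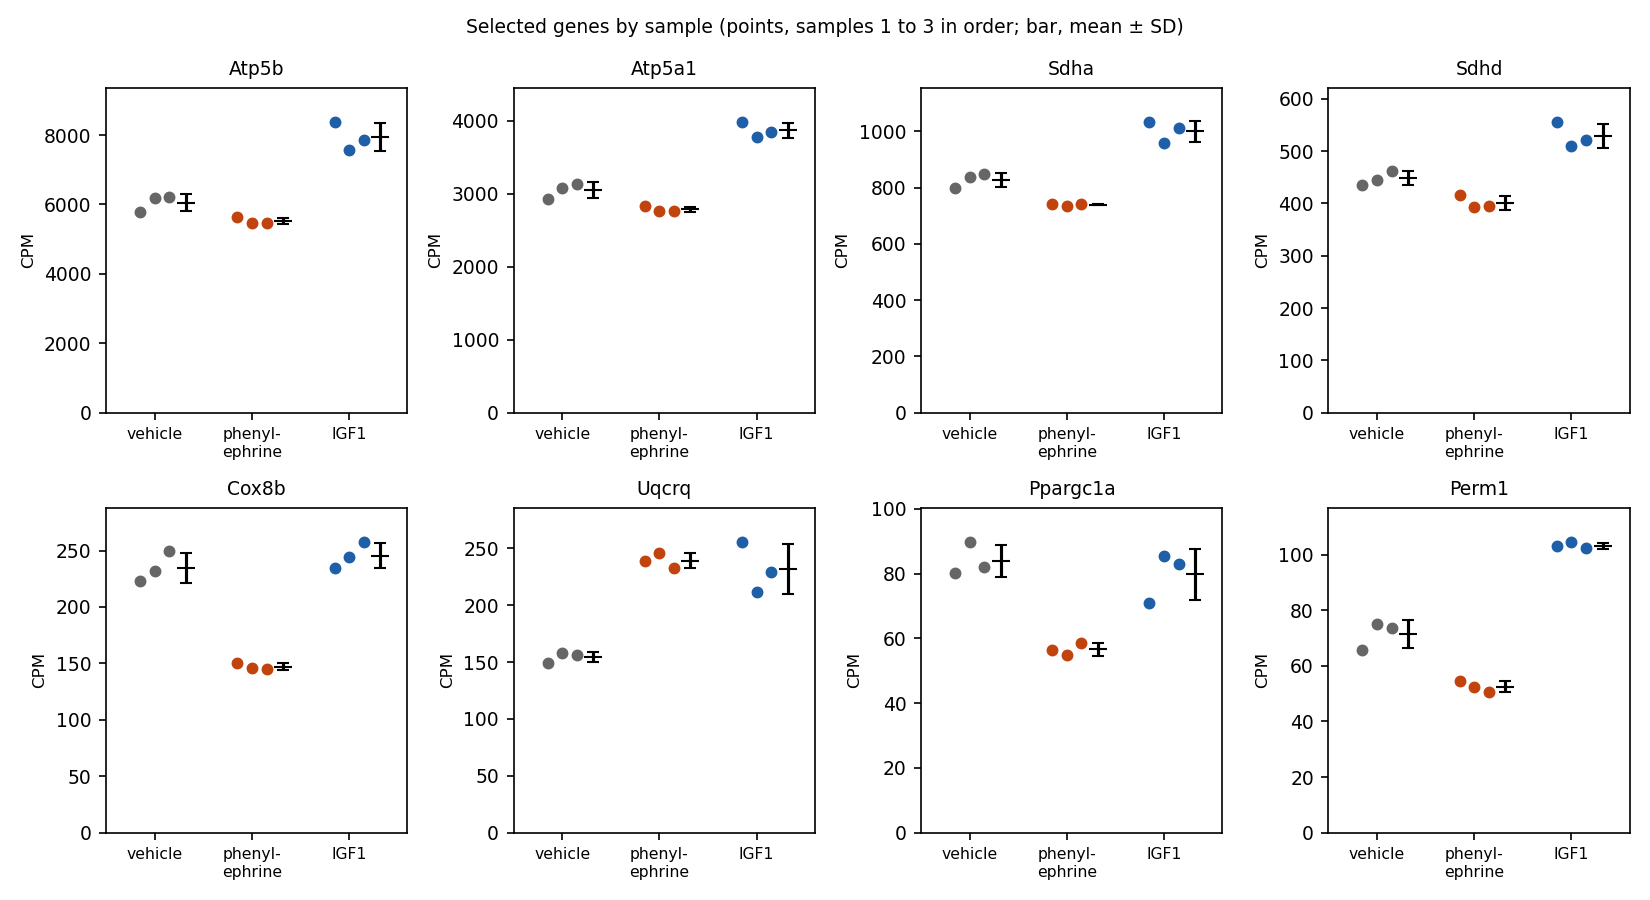
CPM of 6 genes of the set and of the regulators Ppargc1a and Perm1 in each sample (points), with the group mean and SD (bars, n = 3); each axis starts at 0. Atp5b, Atp5a1, Sdha, Sdhd, Cox8b and both regulators are lowest with phenylephrine, while Uqcrq is above vehicle with each treatment.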

How the data were processed

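RNA of 9 samples was sequenced from libraries of a NuGEN Ovation kit on a NovaSeq, per the labels' protocols. The authors deposited raw counts of reads for each gene. The submitters' processing notes name STAR, HTSeq, DESeq and the rn5 build without versions; the strand setting is not given in sources used here. Counts were filtered with filterByExpr, scaled by the trimmed mean of M-values and fitted with group as the one factor in all 9 samples by edgeR 4.0.16 in R 4.3.3 (robust quasi-likelihood). Benjamini-Hochberg adjustment covered the 11873 genes tested, and the threshold was 0.05. Each pair of groups was tested. CPM uses the scaled library sizes, and an SE is the log2 difference divided by the square root of F. Sums per complex and shares of isoforms use CPM or reads of the same samples.

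The gene set, the 9 lists of partner genes and the 8 marker lists were chosen with earlier results of these data known. Genes were named by rule: per complex and comparison, up to 3 with the highest and 3 with the lowest difference among those past the threshold, genes past it in opposite directions with the 2 treatments, all of complex II, isoforms of complex IV and the c ring, Cyc1, Cycs, Slc25a4, Ppargc1a, Ppargc1b, Esrra, Tfam, Nrf1 and Gabpa, and, per partner list, the highest, the lowest and the smallest adjusted p. Not every gene the rule gave is printed. Cox7c, Etfa, Ndufa11 and Atp5i were named after their values were seen. Alternatives were DESeq2 1.42.0, limma-voom (limma 3.58.1), other scalings, filters and thresholds, the 2 groups alone, a replicate block and leaving out each sample. The scripts were tested on simulated data. The labels do not say if a replicate number marks a shared culture. Deviations of same-numbered samples correlated between -0.194 and 0.062, which cannot tell if the samples were paired.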

Additional observations from a re-analysis of the deposited data

How the results depend on the processing

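The phenylephrine counts depended most on the processing. Of 86 genes, 31 rose and 9 fell, where 27.9% and 28.9% of all tested genes did. With library size alone 9 rose and 36 fell, where 14.7% and 48% of all genes did, and the median turned from 0.10 to -0.0903. With only the 2 groups compared 52 rose, where 32.6% of all genes did. Leaving out 1 sample gave 23 to 51 rises, the 51 without IGF1 replicate 1, where 31.2% of all genes rose. With a log2 difference of at least 0.32 also required 8 rose and 2 fell, where 16.2% and 19% of all genes did. At an adjusted p under 0.01, 5 fell, where 22.5% of all genes did. With library size alone these genes turned to the opposite sign with phenylephrine: Ndufb3 (-0.0798), Ndufs8 (-0.0301), Uqcrh (-0.0201), Uqcr11 (-0.0524), Uqcrc1 (-0.0427), Cox7b (-0.0465), Sdhaf2 (-0.0397), Cox4i1 (-0.11), Cox8a (-0.14), Ndufa4 (-0.11), Atp5g3 (-0.10), Esrra (-0.0844) and Tfam (-0.0272). With IGF1, 39 genes rose with the fold threshold, where 12.9% of all genes did. With library size alone 3 fell, where 30.4% of all genes did. Leaving out 1 sample gave 1 to 2 falls, the 2 without IGF1 replicate 1, where 26.6% of all genes fell. For phenylephrine against IGF1, leaving out 1 sample gave 2 to 8 higher, the 8 without IGF1 replicate 1, where 30.4% of all genes were higher. The fold threshold gave 1 higher and 15 lower, where 15.8% and 17.6% of all genes were called. Library size alone gave a median of -0.304, where that of all genes was -0.114. Cox6a2 turned to 0.0885 between the treatments without IGF1 replicate 1. It is not known if a replicate number marks a shared culture. With the replicate block 32 genes rose and 7 fell with phenylephrine, and the calls of Ndufb3 (edgeR adjusted p = 0.069), Atp5b (0.057) and Atp5c1 (0.071) ended. A sign change where neither fit passed was not counted as a reversal. The cause of these differences was not tested beyond the scaling and the samples named. Low counts limit Cox4i2, Cox6b2 and Ndufa4l2.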

Other observations

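Of 11 tested genes that shape the cristae and inner membrane, where the chain sits, 7 rose and 2 fell with each treatment. With library size alone 3 rose and 3 fell with phenylephrine, and 5 rose and 2 fell with IGF1. Of all genes tested, 27.9% rose and 28.9% fell with phenylephrine, and 24.7% rose and 23.4% fell with IGF1, and the counts of the lists that follow are to be read against these shares. Chchd6, a part of the complex that holds cristae junctions, had 13.1, 13.2 and 13.8 CPM with vehicle, 33.0, 30.3 and 31.5 CPM with phenylephrine and 22.9, 16.7 and 17.9 CPM with IGF1. The groups did not overlap, and the log2 differences were 1.24 (edgeR adjusted p = 8e-08) and 0.51 (edgeR adjusted p = 0.00052). Immt, the core protein of the same complex, had 250.2, 262 and 268 CPM with vehicle, 342, 339 and 340.2 CPM with phenylephrine and 452, 407 and 408 CPM with IGF1, with differences of 0.39 and 0.70. Oma1, a protease of the inner membrane, fell with IGF1 by 0.41 on the log2 scale (edgeR adjusted p = 0.00058) and differed by 0.07 with phenylephrine (edgeR adjusted p = 0.49).

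Of 9 tested genes for the upkeep and transcription of mitochondrial DNA, 3 rose and 3 fell with phenylephrine, and 2 rose and 2 fell with IGF1, close to the shares of all genes. Scaled by library size alone, 1 rose and 6 fell with phenylephrine, and 1 rose and 3 fell with IGF1. Polrmt, the mitochondrial RNA polymerase, had 37.5, 35.5 and 35.7 CPM with vehicle, 22.05, 24.6 and 21.5 CPM with phenylephrine and 31.6, 32.4 and 33.8 CPM with IGF1. Phenylephrine samples were below all others (log2 -0.67, edgeR adjusted p = 3.8e-07). Its difference with IGF1 was -0.15 (edgeR adjusted p = 0.048), a call that ended with DESeq2 (adjusted p = 0.064) and without IGF1 replicate 1 (edgeR adjusted p = 0.056). Tfb1m, which methylates mitochondrial ribosomal RNA, rose by 0.54 and 0.49. Of 7 tested further genes of complex I assembly, 2 rose and 1 fell with phenylephrine, and 5 rose and 1 fell with IGF1. Under library size alone none rose and 3 fell with phenylephrine and 2 rose with IGF1, and without IGF1 replicate 1, 3 rose with IGF1.

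Markers of other cells were counted as well. With phenylephrine 1 fibroblast marker rose and 4 fell of 9, and with IGF1 4 rose and 1 fell. Of 9 smooth muscle markers, which include Des, also a myocyte gene, 4 rose and 2 fell with phenylephrine and 1 rose and 2 fell with IGF1. Of 9 endothelial markers 2 rose and 1 fell with phenylephrine, and none rose and 6 fell with IGF1, where they summed to 114 to 117 CPM against 165 to 185 CPM with vehicle. Of 7 macrophage markers none rose and 2 fell with phenylephrine, and 1 rose and 1 fell with IGF1. Of 5 epicardial markers none rose and 3 fell with each treatment, and of 3 Schwann cell markers none rose and 1 fell with each. With library size alone the phenylephrine counts of falls were 5 for fibroblasts, 3 each for smooth muscle and endothelium, 4 for macrophages and 2 for Schwann cells, and without IGF1 replicate 1 they were 3 for endothelium and 2 for Schwann cells. The 1 erythroid marker passed in neither comparison. The smooth muscle list summed to 3425 to 3494 CPM with vehicle, 6886 to 7122 CPM with phenylephrine and 5367, 3610 and 3693 CPM in IGF1 replicates 1, 2 and 3, and the macrophage, epicardial, Schwann and erythroid lists to at most 77.7 CPM in any sample. Some defining markers were at 0 in some samples, among them Cd163, Cdh19 and Hbb. The part of these differences in the results was not tested.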
